A study of Citrus trifoliata with 2 samples.

Results

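The brassinosteroid genes of trifoliate orange buds were taken as the unigenes, that is, assembled transcript models, whose best Swiss-Prot hit names an enzyme of brassinosteroid synthesis or a protein of brassinosteroid signalling. Swiss-Prot is a curated protein collection, and the words searched in its protein names covered the cytochrome P450 and reductase enzymes of synthesis, receptors related to BRASSINOSTEROID INSENSITIVE 1 (BRI1), somatic embryogenesis receptor kinases, shaggy-related kinases and the BZR1 and BES1 transcription factors. The search gave 115 of the 35775 unigenes in the table. They hit 26 protein entries, all from plants, and 102 of the 115 hit an Arabidopsis entry. No measured level entered the search itself, but its words were chosen with earlier results of these data known.

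Brassinosteroids are plant steroid hormones made from membrane sterols by a chain of reductases and cytochrome P450 oxidases. The hormone binds the receptor kinase BRI1 at the cell surface, which then pairs with a co-receptor kinase of the SERK family such as BAK1. The signal shuts off shaggy-related kinases such as BIN2, so that the transcription factors BZR1 and BES1 lose their inhibitory phosphates and act on target genes, many of them for loosening of the cell wall. In shoots the hormone is known for cell elongation and vascular development, and in Arabidopsis also for the timing of flowering.

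The precocious trifoliate orange, a mutant that flowers early, was set against the normal trifoliate orange as wild type, with 1 bud library each. In both, the terminal bud and the 5 buds that follow it came from spring flushes of 2-year-old trees that had pruned their own shoot tips and were initiating flowers. No treatment was applied, poly(A) RNA was sequenced, and how many trees each library holds is not given in the sources used here. Counted in units of 1000, unigenes took 10037 reads of the mutant library and 9995 of the wild-type library.

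With 1 library per group there is no test across trees and no SD. Levels are given as raw reads, or as RPKM, reads per kilobase of unigene and per 1000000 reads of the library. Folds are mutant over wild type, from reads and library totals, and the interval after a fold is an exact 95% binomial (Clopper-Pearson) interval that covers counting error only. Ratios are log2 of RPKM + 1, mutant over wild type, so the ratio of a thinly read unigene is drawn towards 0. A unigene was kept when its RPKM reached 1 in at least 1 library, and it was counted as higher or lower at a ratio of 2-fold. The RNA came from whole buds, so fewer cells of a type and less RNA per cell cannot be told apart.

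The table as a whole holds a structure that touches these counts. By abrupt drops in unigene length along the numbering, the unigenes form 4 blocks of consecutive numbers. The first 2 blocks, up to number 18200, have median lengths of 911 and 915.5 bases and median log2 ratios of 0.06 and -0.01. Block 3 has a median length of 316 bases and a median log2 ratio of 0.66, and in the mutant library 29.3% of its kept unigenes were higher by 2-fold or more. Block 4 has a median length of 322 bases and a median log2 ratio of -0.55, and 23.1% of its kept unigenes were at least 2-fold lower. Trimmed-mean scaling would divide the folds of this account by 1.05, a shift of 0.07 on the log2 scale.

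Of the 115 unigenes, 109 were kept and 6 were not. The 115 together took 32382 mutant and 30687 wild-type reads, 1.05-fold (1.03 to 1.07), which equals the 1.05 of the trimmed-mean scaling. At the 2-fold limit 12 were higher and 8 lower in the mutant library, where 8.61% of all kept unigenes were higher and 5.31% lower. The median log2 ratio was 0.14 over the 109 kept and 0.08 over all 115, against 0.05 over all kept unigenes. A positive ratio was found for 69 of the 109, and for 53.8% of all kept unigenes. The counting interval lay above 1 for 27 of the 115 and below 1 for 14, where 19.0% and 13.8% of all unigenes did so. Of the 109 kept, 11 passed only through the mutant library and 8 only through the wild-type library, and these had to differ. Of the 12 higher, all but Unigene520, Unigene18383, Unigene21133 and Unigene27175 passed only through the mutant library. Of the 8 lower, Unigene30257, Unigene33035 and Unigene34813 passed only through the wild-type library. Most of the wide ratios rest on short, thinly read pieces, since 19 of the 20 unigenes past 2-fold had under 100 reads in all.

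**Figure D1:**
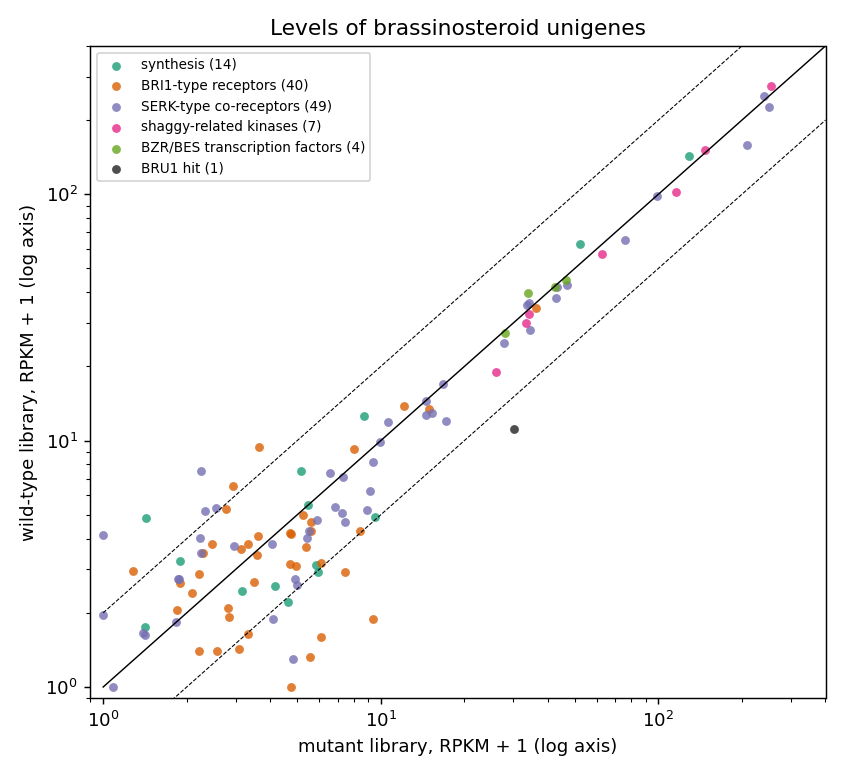
RPKM + 1 of each of the 115 unigenes in the mutant library (horizontal) and in the wild-type library (vertical), both on log axes, coloured by role; the solid line marks equality and the dashed lines 2-fold. Unigenes at high levels lie along the line of equality, the BRU1 hit at 29.2 and 10.2 RPKM lies apart from them, and the remaining points beyond 2-fold are at low levels.

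The positions of those 20 unigenes in the numbering follow the blocks. All 8 lower ones lie in block 4, and 11 of the 12 higher ones lie in block 3, where block 3 holds 27 of the 115 and block 4 holds 30. The block 3 unigenes summed to 531 mutant and 289 wild-type reads, and the block 4 unigenes to 351 and 645. In blocks 1 and 2, by contrast, 58 unigenes carried 31500 mutant reads and 29753 wild-type reads, and a single one of them passed 2-fold, the BRU1 hit. The interval lay above 1 for 17 of the 58 and below 1 for 4, against 21.1% and 16.2% of all unigenes of these blocks. In those 2 blocks 1.82% of all kept unigenes were at least 2-fold higher and 0.544% at least 2-fold lower. The part of the numbering in the ratios of single unigenes was not tested.

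**Figure D2:**
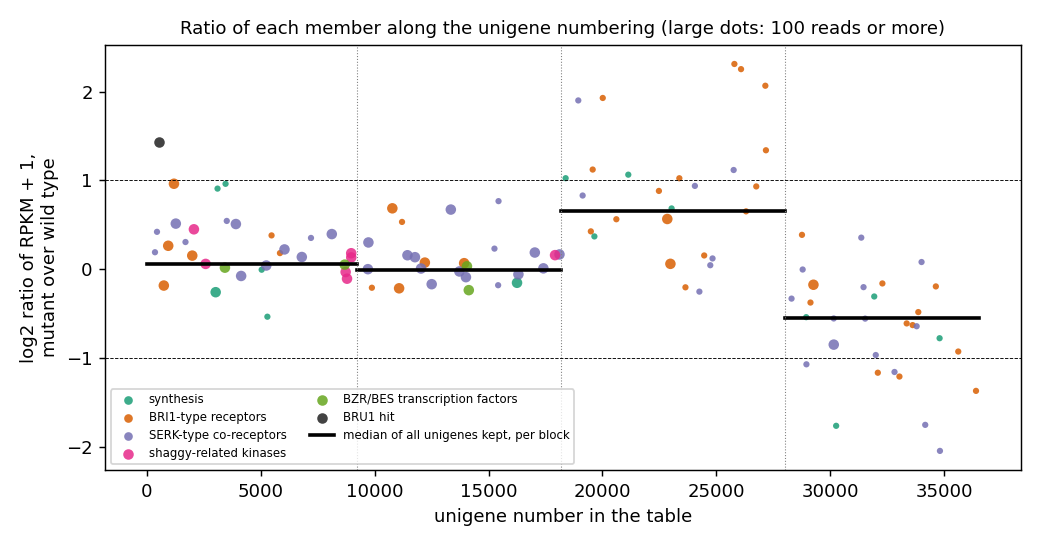
Log2 ratio of RPKM + 1, mutant over wild type, of each of the 115 unigenes against its number in the table; small dots have under 100 reads in all, large dots 100 or more, dotted lines part the 4 blocks and black bars give the median of all kept unigenes per block (0.06, -0.01, 0.66 and -0.55). Unigenes beyond the dashed 2-fold lines lie in blocks 3 and 4, apart from the BRU1 hit in block 1.

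The synthesis enzymes carried fewer reads in the mutant library as a sum, and this rests on a single enzyme. The 14 synthesis unigenes summed to 1785 mutant and 1956 wild-type reads, 1.10-fold lower (1.03 to 1.17). CYP90A1, also called CPD, is the oxidase whose loss dwarfs Arabidopsis seedlings, and it held most of these reads. Its longer unigene, Unigene3021 of 1475 bases, had 760 reads and 51.3 RPKM in the mutant library against 908 reads and 61.6 RPKM in the wild-type library, 1.20-fold lower (1.09 to 1.32). Its shorter one, Unigene16249 of 610 bases, had 781 reads and 128 RPKM in the mutant library against 865 reads and 142 RPKM in the wild-type library, 1.11-fold lower (1.01 to 1.23). Both pieces were thus lower in the mutant library by a small margin, and together they had 1541 mutant and 1773 wild-type reads, 1.16-fold lower (1.08 to 1.24). Neither reached 2-fold.

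CYP90C1, or ROTUNDIFOLIA3, hydroxylates the steroid side chain and in Arabidopsis shapes leaf length. Its Unigene18383 had 62 reads and 4.96 RPKM in the mutant library against 24 reads and 1.93 RPKM in the wild-type library, 2.57-fold (1.58 to 4.31), and lies in block 3. Its Unigene3455, in block 1, had 55 reads and 8.56 RPKM in the mutant library against 25 reads and 3.91 RPKM in the wild-type library, 2.19-fold (1.34 to 3.67), with a log2 ratio of 0.96 just short of the limit. These 2 pieces were higher in the mutant library, but the other 2 CYP90C1 pieces, both in block 4, were not. Unigene28942 had 18 mutant and 28 wild-type reads, and Unigene31929 had 5 and 9 and fell below the RPKM minimum. The 4 pieces summed to 140 mutant and 86 wild-type reads, 1.62-fold (1.23 to 2.15).

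The other synthesis enzymes were read thinly in both libraries. CYP90B1, or DWARF4, catalyses the committing side-chain hydroxylation of the pathway. Its Unigene23034 had 16 mutant and 8 wild-type reads, 1.99-fold (0.804 to 5.38), and its Unigene5291, a weak hit, had 22 and 33, 0.664-fold (0.369 to 1.17). The intervals of both include 1 and the directions differ. CYP90D2, which in rice acts in the late steps, had 25 mutant and 25 wild-type reads on Unigene5040.

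CYP85A enzymes carry out the oxidation that yields castasterone, a bioactive brassinosteroid. The tomato CYP85A1 hit, Unigene3103, had 23 mutant and 10 wild-type reads, 2.29-fold (1.05 to 5.39), and under trimmed-mean scaling the interval reached 1 (0.999 to 5.14). The 4 pieces that hit the bean CYP85A entry had 18 mutant and 21 wild-type reads as a sum. Among them Unigene19645, the longest, had 6 and 4 reads, 1.49-fold (0.354 to 7.20). Unigene21133 had 9 and 3 reads, 2.99-fold (0.746 to 17.2), and both of these lie in block 3. Unigene30257, in block 4, had 1 and 9 reads, 9.04-fold lower (1.25 to 396). These counts do not settle a direction for CYP85A at this depth. No unigene matched the words for the inactivating enzymes of the CYP734A family.

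**Figure D3:**
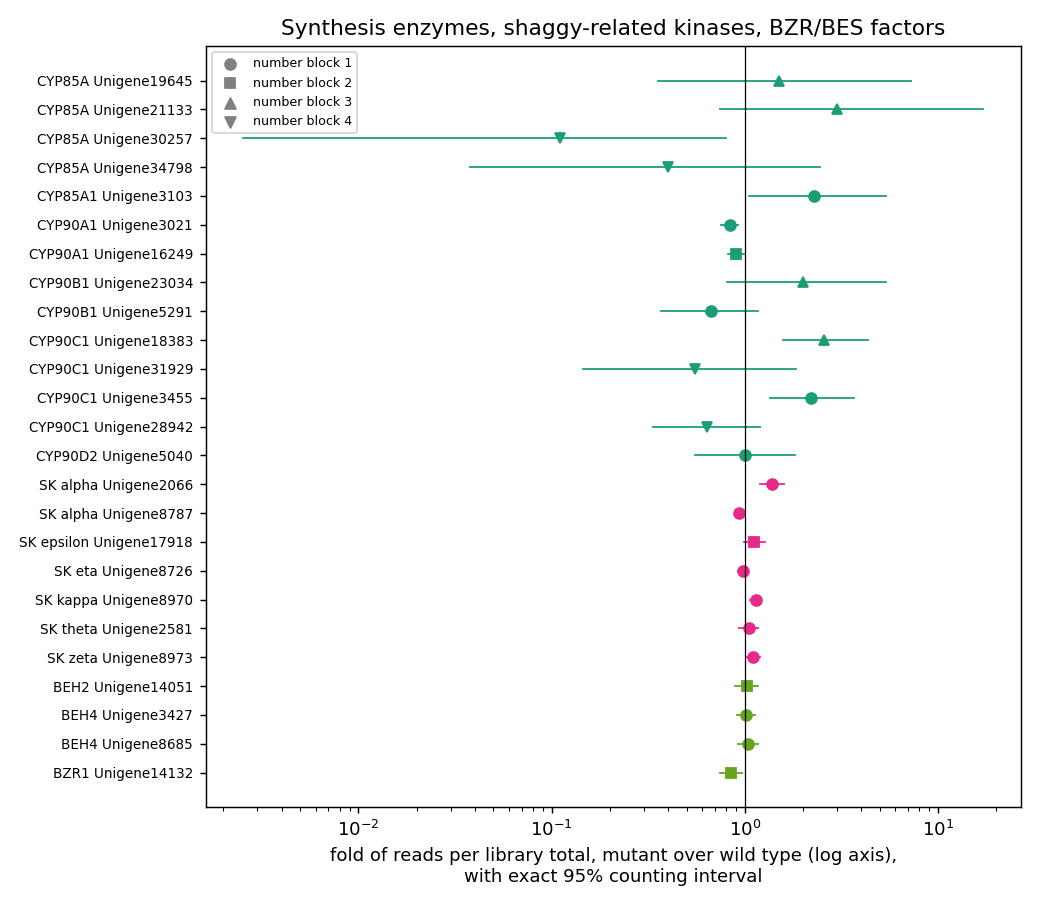
Fold of reads per library total, mutant over wild type, on a log axis, with exact 95% counting intervals, for the 14 synthesis unigenes (green), the 7 shaggy-related kinases (SK, pink) and the 4 BZR/BES unigenes (light green); marker shapes give the number block and the vertical line marks 1. The kinases and BZR/BES factors sit close to 1 with short intervals, the CYP90A1 pieces just below 1, and the CYP85A, CYP90B1 and CYP90C1 pieces spread widely.

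The reductases DET2 and DWARF1 were searched for under names that the table words differently, so their unigenes are not among the 115 and were picked out after the values had been seen. DET2, the steroid reductase of an early step, had 30 mutant and 36 wild-type reads on Unigene12199, 0.830-fold (0.494 to 1.39). Diminuto, the DWARF1 reductase that makes campesterol, was far more abundant, with 3645 reads and 184 RPKM in the mutant library against 3923 reads and 198 RPKM in the wild-type library on Unigene17588, 1.08-fold lower (1.03 to 1.13). The shorter diminuto piece, Unigene14423, had 161 and 144 reads, 1.11-fold (0.884 to 1.40).

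The receptor kinase BRI1 itself stood at like levels in the libraries. Unigene13928, at 3827 bases the longest of the 115, had 1352 reads and 35.2 RPKM in the mutant library against 1282 reads and 33.5 RPKM in the wild-type library, 1.05-fold (0.972 to 1.13). It carried most of the reads of the 7 unigenes that hit BRI1, which summed to 1593 mutant and 1536 wild-type reads, 1.03-fold (0.962 to 1.11). The next longest, Unigene938, had 140 and 111 reads, 1.26-fold (0.972 to 1.63), and Unigene29260 had 58 and 68. Both are long pieces whose intervals include 1.

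The short BRI1 hits pointed both ways. Unigene20012, of 332 bases in block 3, had 17 mutant and 2 wild-type reads, 8.46-fold (2.01 to 75.5). Unigene36396, of 676 bases in block 4, had 18 mutant and 57 wild-type reads, 3.18-fold lower (1.84 to 5.74). Unigene33035, also in block 4, had 1 and 7 reads, with a fold of 0.142 (0.00316 to 1.11). The hits of these 3 are weak, with E-values of 2e-08, 6e-32 and 3e-08, and a weak hit to a receptor kinase can come from another kinase of the same large family.

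BRI1-LIKE 1 (BRL1) and BRL3 are receptors that in Arabidopsis bind the hormone in vascular cells. The 9 BRL1 hits summed to 280 mutant and 212 wild-type reads, 1.32-fold (1.10 to 1.58). Most of this difference lies on Unigene1190 in block 1, a weak hit with an E-value of 2e-40. Unigene1190 had 110 reads and 7.42 RPKM in the mutant library against 49 reads and 3.32 RPKM in the wild-type library, 2.24-fold (1.58 to 3.20) and a log2 ratio of 0.96. The strongest BRL1 hit of blocks 1 and 2, Unigene12203, had 75 and 70 reads, 1.07-fold (0.760 to 1.50), so the BRL1 pieces did not move as one. In block 3, Unigene25790 had 19 mutant and 2 wild-type reads, 9.46-fold (2.28 to 83.8), Unigene27175 had 20 and 6, and Unigene23374 had 11 and 3. The 4 BRL1 pieces of block 4 were all at lower counts in the mutant library, with intervals that include 1. They had 12 mutant and 22 wild-type reads on Unigene33863, the strongest BRL1 hit of all, 0.543-fold (0.245 to 1.15), and 15 and 23 on Unigene29130, 13 and 25 on Unigene33353, and 5 and 12 on Unigene35617. The 3 BRL1 hits with an E-value of at most 1e-50 are Unigene12203, Unigene33863 and Unigene29130, and none had an interval off 1.

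For BRL3, 6 unigenes summed to 204 mutant and 176 wild-type reads, 1.15-fold (0.939 to 1.42). Its strongest hit, Unigene22982, had 65 and 61 reads, and its most abundant piece, Unigene1993, had 116 and 103. Unigene19570 passed 2-fold on 5 mutant reads and 1 wild-type read, with an interval of 0.557 to 235 that includes 1.

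BRL2, also known as VASCULAR HIGHWAY 1, acts in leaf vein formation in Arabidopsis and does not bind the hormone there. Its 12 unigenes summed to 385 mutant and 325 wild-type reads, 1.18-fold (1.02 to 1.37). Unigene10776 had 84 reads in the mutant library against 44 in the wild-type library, 1.90-fold (1.30 to 2.80), and Unigene22845, in block 3, had 94 against 55, 1.70-fold (1.21 to 2.42). Against these stood block 4 pieces that were lower, Unigene33614 with 22 mutant and 42 wild-type reads, 1.92-fold lower (1.12 to 3.37), and Unigene32086 with 8 and 23, 2.89-fold lower (1.25 to 7.47).

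The systemin receptor SR160 of a tomato relative is the BRI1 protein of that plant, and 6 unigenes hit it. They entered through the entry code, since the protein name alone does not hold the words searched, and without them the counts past 2-fold are 10 higher and 8 lower. Unigene745 had 147 mutant and 168 wild-type reads, 0.871-fold (0.694 to 1.09). In block 3, Unigene27149 had 14 mutant reads and 1 wild-type read, 13.9-fold (2.12 to 589). Unigene26082, also in block 3, had 9 mutant reads and 0 wild-type reads. Against a floor of 3 reads in the wild-type library this is 2.99-fold, and its counting interval starts lower, at 1.97.

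Over all 40 receptor unigenes 7 were higher and 3 lower at the 2-fold limit, where 8.61% of all kept unigenes were higher and 5.31% lower. All 7 higher ones are among the 16 receptor unigenes of block 3, where 29.3% of all kept unigenes were higher, and all 3 lower ones among the 12 of block 4, where 23.1% were lower. Of the 7 higher, all but Unigene27175 passed the RPKM minimum only through the mutant library, so they had to differ. Of the 3 lower, Unigene33035 passed it only through the wild-type library. The sum of the 40 was 2646 mutant and 2428 wild-type reads, 1.09-fold (1.03 to 1.15), or 1.03-fold (0.978 to 1.09) under trimmed-mean scaling. None of the 11 with an E-value of at most 1e-50 passed 2-fold. Of all 7380 kept unigenes with such an E-value, 226 were higher and 115 lower. Those 11 summed to 2064 mutant and 1946 wild-type reads, 1.06-fold (0.992 to 1.12).

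**Figure D4:**
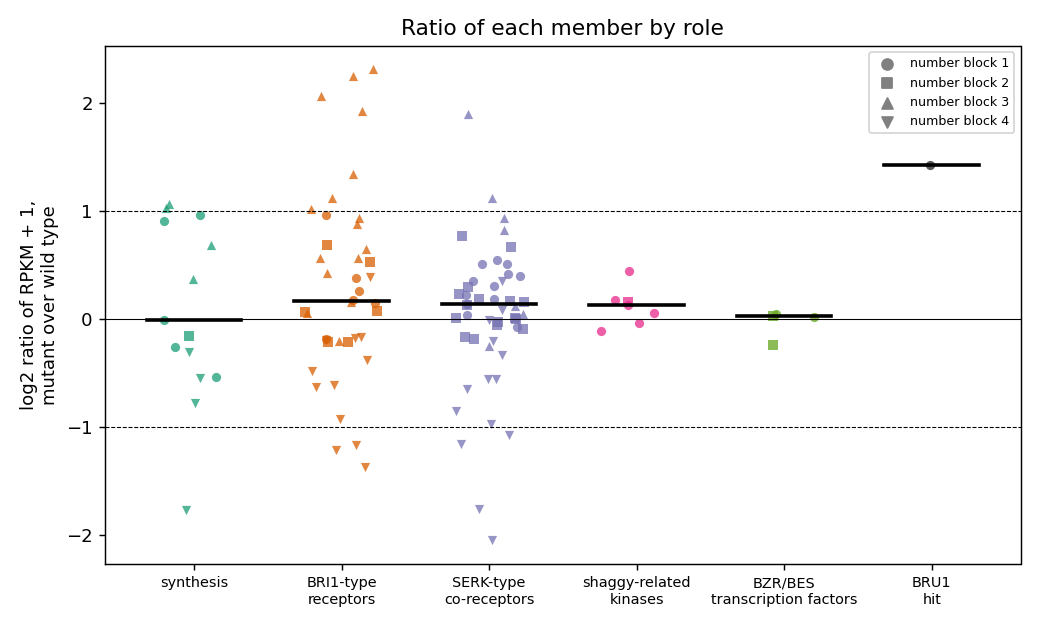
Log2 ratio of RPKM + 1, mutant over wild type, of each of the 115 unigenes by role; marker shapes give the number block, black bars the median of the kept unigenes of a role and dashed lines 2-fold. Within the synthesis, receptor and co-receptor roles the high points are mostly from block 3 and the low ones from block 4, and the kinases and BZR/BES factors lie between -0.24 and 0.45.

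Among the co-receptors, the SERK2 hits were higher in the mutant library as a sum and the BAK1 hits slightly lower as a sum. The 12 SERK2 unigenes summed to 4782 mutant and 3888 wild-type reads, 1.22-fold (1.17 to 1.28). SERK2 in Arabidopsis acts with SERK1 in anther development, and both can serve as co-receptors of BRI1-type signalling. Its most abundant piece, Unigene8118, had 1947 reads and 208 RPKM in the mutant library against 1471 reads and 158 RPKM in the wild-type library, 1.32-fold (1.23 to 1.41). Unigene3908 had 389 and 265 reads, 1.46-fold (1.25 to 1.72), and Unigene9726 had 819 and 657, 1.24-fold (1.12 to 1.38). Unigene11769 had 1170 and 1058 reads, 1.10-fold (1.01 to 1.20), with an interval of 0.965 to 1.14 under trimmed-mean scaling. These 4 lie in blocks 1 and 2, have E-values under 1e-50, and were all higher in the mutant library, none by 2-fold. The lower SERK2 pieces were in block 4, Unigene32819 with 7 mutant and 22 wild-type reads, and Unigene34813 with 0 and 7. Against the floor of 3 reads in the mutant library, Unigene34813 was 2.34-fold lower, and its counting interval starts at 1.45-fold lower.

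SERK1, which also marks cells competent for somatic embryogenesis, had 19 unigenes with 5776 mutant and 5238 wild-type reads, 1.10-fold (1.06 to 1.14). The most read of its strong hits differed little. Unigene17406 had 1936 and 1914 reads, 1.01-fold (0.945 to 1.07), and Unigene18112 had 1002 and 886, 1.13-fold (1.03 to 1.23), or 1.07-fold (0.979 to 1.18) under trimmed-mean scaling. The most abundant SERK1 piece per length, Unigene6802, is a weak hit with 1258 reads and 249 RPKM in the mutant library against 1138 reads and 226 RPKM in the wild-type library. The longest SERK1 piece, Unigene11439, had 701 and 623 reads, 1.12-fold (1.004 to 1.25), or 1.07-fold (0.957 to 1.19) under trimmed-mean scaling. Wider ratios came from pieces with fewer reads, Unigene13343 with 134 and 76 reads, 1.76-fold (1.32 to 2.36), and Unigene1271 with 97 and 63, 1.53-fold (1.11 to 2.14). Unigene24056, in block 3, had 20 and 8 reads, 2.49-fold (1.05 to 6.53). Unigene18938, also in block 3, had 13 mutant reads and 1 wild-type read, 12.9-fold (1.94 to 550). Unigene31996, in block 4 and under the RPKM minimum, had 0 and 6.

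BAK1, or SERK3, is the main co-receptor of BRI1 and also serves immune receptors. Its 14 unigenes summed to 3591 mutant and 3825 wild-type reads, 1.07-fold lower (1.02 to 1.12). The longest BAK1 piece, Unigene12036, had 382 and 378 reads, 1.01-fold (0.871 to 1.16). The strongest BAK1 hit, Unigene4139, had 786 and 826 reads, 0.948-fold (0.858 to 1.05). Unigene16310, a short piece, was the most abundant per length, with 1162 reads and 239 RPKM in the mutant library against 1204 reads and 248 RPKM in the wild-type library. Unigene4139 and Unigene16310 were a few percent lower in the mutant library, with intervals that include 1. Under trimmed-mean scaling, however, the interval of Unigene16310 lay below 1 (0.844 to 0.993). The BAK1 pieces whose interval lay below 1 without that scaling are in block 4, Unigene30152 with 32 mutant and 78 wild-type reads, 2.45-fold lower (1.60 to 3.82), and Unigene34167 with 8 and 42, 5.27-fold lower (2.45 to 13.0). The lower BAK1 sum includes these pieces, and all kept unigenes of block 4 had a median log2 ratio of -0.55.

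SERK4 and SERK5, close relatives of BAK1 in Arabidopsis, were thinly read. The single SERK4 hit, Unigene25758, had 7 mutant and 2 wild-type reads, 3.49-fold (0.664 to 34.4). Of the SERK5 hits, Unigene19129 in block 3 had 29 and 13 reads, 2.22-fold (1.12 to 4.66), and Unigene28952 in block 4 had 10 and 28, 2.81-fold lower (1.33 to 6.49). The 49 co-receptor unigenes together had 14228 mutant and 13032 wild-type reads, 1.09-fold (1.06 to 1.11), or 1.04-fold (1.01 to 1.06) under trimmed-mean scaling. At the 2-fold limit 2 of the 44 kept were higher and 4 lower, where 8.61% of all kept unigenes were higher and 5.31% lower. Both higher ones lie in block 3, where 29.3% of all kept unigenes were higher, and both passed the RPKM minimum only through the mutant library. All 4 lower ones lie in block 4, where 23.1% were lower, and of these Unigene34813 passed only through the wild-type library.

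The receptor and co-receptor hits share their kinase domain with many other plant kinases, and their KEGG descriptions do not separate them. Of all 115 unigenes, 70 have no such description. Of the 89, 28 carry a KEGG description as an interleukin-1 receptor-associated kinase, an animal protein with a related kinase domain. Of all 115 unigenes, 67 have an E-value above 1e-50. These include 10 of the 12 that were higher and all 8 that were lower at the 2-fold limit. Over all kept unigenes, 226 of the 2948 higher and 115 of the 1818 lower had an E-value of at most 1e-50.

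The shaggy-related kinases were abundant and differed little. The 7 unigenes summed to 11106 mutant and 10849 wild-type reads, 1.02-fold (0.993 to 1.05), and under trimmed-mean scaling the direction turned, to 0.971-fold (0.946 to 0.997). None passed 2-fold, all 7 lie in blocks 1 and 2, and all 7 are described as glycogen synthase kinase 3 beta in the KEGG column. Kinase eta, which is BIN2, the central negative regulator of the pathway, had 2560 reads and 147 RPKM in the mutant library against 2605 reads and 150 RPKM in the wild-type library on Unigene8726, 0.979-fold (0.926 to 1.03), or 0.932-fold (0.883 to 0.985) under trimmed-mean scaling. Kinase zeta, a close relative of BIN2 that acts with it in Arabidopsis, had 1111 and 1007 reads on Unigene8973, 1.10-fold (1.01 to 1.20), and the interval reached below 1 under trimmed-mean scaling (0.960 to 1.14).

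The alpha kinases, known in Arabidopsis from salt stress, differed between their 2 unigenes. Unigene8787 was the most abundant of the role per length, with 3755 reads and 254 RPKM in the mutant library against 4026 reads and 274 RPKM in the wild-type library, 1.08-fold lower (1.03 to 1.13). Unigene2066 had 465 reads and 24.9 RPKM in the mutant library against 334 reads and 18.0 RPKM in the wild-type library, 1.39-fold (1.20 to 1.60). It had the largest ratio among the 7, a log2 ratio of 0.45. Kinase kappa had 2027 and 1779 reads on Unigene8970, 1.13-fold (1.06 to 1.21). The epsilon kinase, with 539 and 479 reads on Unigene17918, and the theta kinase, with 649 and 619 on Unigene2581, had intervals that include 1.

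The transcription factors at the end of the cascade were likewise close to equal. BZR1, which represses synthesis genes such as CPD in Arabidopsis when the hormone is present, had 451 reads and 32.9 RPKM in the mutant library against 531 reads and 38.9 RPKM in the wild-type library on Unigene14132, 1.18-fold lower (1.04 to 1.34). BEH4, a homolog of BZR1, had 769 and 756 reads on Unigene3427, 1.01-fold (0.915 to 1.12), and 621 and 596 on Unigene8685, 1.04-fold (0.926 to 1.16). BEH2, a further homolog, had 431 and 419 reads on Unigene14051, 1.02-fold (0.893 to 1.17). BZR1 was thus the single one of the 4 whose interval lay off 1. The 4 summed to 2272 mutant and 2302 wild-type reads, 0.983-fold (0.927 to 1.04).

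The clearest difference was in a hit to a hormone-responsive gene of soybean. Whether the unigene responds to the hormone in trifoliate orange was not tested. Unigene520, of 1179 bases in block 1, hit soybean BRU1 with an E-value of 1e-132, a xyloglucan endotransglycosylase of the cell wall whose transcript is raised by brassinosteroid in elongating soybean stems. It had 345 reads and 29.2 RPKM in the mutant library against 120 reads and 10.2 RPKM in the wild-type library, 2.86-fold (2.32 to 3.55), with a log2 ratio of 1.43. It was higher in the mutant library and was the single unigene of the 115 with 100 or more reads whose ratio of RPKM + 1 passed 2-fold. By the fold of reads itself, Unigene1190 (2.24-fold) and Unigene30152 (2.45-fold lower) also passed 2-fold with over 100 reads.

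Other genes of the pathway were read from lists of names. Of the names for hormone-responsive genes, 2 of 19 matched any unigene, and these gave 4 unigenes, all higher in the mutant library at the 2-fold limit, where 8.61% of all kept unigenes were higher. XTH22, known in Arabidopsis as the touch- and brassinosteroid-induced TCH4, had 222 reads and 32.5 RPKM in the mutant library against 81 reads and 11.9 RPKM in the wild-type library on Unigene184 in block 1, 2.73-fold (2.11 to 3.57). It is of the same enzyme family as BRU1, and how reads shared between family members were counted is not given in the sources used here. The other 3 lie in block 3, where 29.3% of all kept unigenes were at least 2-fold higher, and have few reads: 26 mutant and 9 wild-type for Unigene19253, 12 and 3 for Unigene27347, both XTH22 hits, and 10 and 1 for Unigene26217, a hit to BEE3, a brassinosteroid-induced transcription factor. Unigene27347 and Unigene26217 passed the RPKM minimum only through the mutant library.

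The enzymes that make the sterol precursors gave 18 unigenes with 8128 mutant and 6532 wild-type reads, 1.24-fold (1.20 to 1.28). Of these, 14 had a positive ratio, as 53.8% of all kept unigenes did, and 1 passed 2-fold, with a median log2 ratio of 0.22 against 0.05 over all kept unigenes. The interval lay above 1 for 10 of them and below 1 for 0, where 19.0% and 13.8% of all unigenes did so. The C5 desaturase on Unigene7413 had 2118 and 1520 reads, 1.39-fold (1.30 to 1.48), and the sterol C-14 reductase on Unigene13986 had 284 and 201, 1.41-fold (1.17 to 1.69). Cycloartenol synthase, the first committed step to plant sterols, had 635 and 511 reads on Unigene1343, its longest piece, 1.24-fold (1.10 to 1.39). It had 1111 and 846 reads on Unigene6958, a weak hit, 1.31-fold (1.19 to 1.43), and 81 and 15 on Unigene19148 in block 3, 5.38-fold (3.08 to 10.0). A negative ratio was found for 4 of the 18, among them the C-24-methyltransferase on Unigene13387 with 312 and 361 reads, 0.861-fold (0.737 to 1.004). These enzymes also supply sterols to membranes, and the 13 in blocks 1 and 2 had a median log2 ratio of 0.15 with none past 2-fold.

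Of the 11 names searched for other signalling proteins, 2 matched any unigene. These were BSL phosphatases, which act between the receptor and BIN2, and GF14 proteins, which hold phosphorylated BZR1 in the cytoplasm. Their 20 unigenes summed to 16348 mutant and 16617 wild-type reads, 0.980-fold (0.959 to 1.001). Of the 20, 0 passed 2-fold in either direction, where 8.61% of all kept unigenes were higher and 5.31% lower. The interval lay above 1 for 4 of them and below 1 for 4, where 19.0% and 13.8% of all unigenes did so. BSL1 had 863 and 729 reads on Unigene11994, 1.18-fold (1.07 to 1.30), and 34 and 34 on Unigene28008 in block 3. BSL3 had 967 and 1095 on Unigene18157, 1.14-fold lower (1.04 to 1.24), and 912 and 897 on Unigene8453, 1.01-fold (0.922 to 1.11). The widest ratios in each direction were on GF14 proteins. Unigene7514 had 1080 and 1473 reads, 1.37-fold lower (1.27 to 1.48), and Unigene5381 had 131 and 88, 1.48-fold (1.12 to 1.96).

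**Figure D5:**
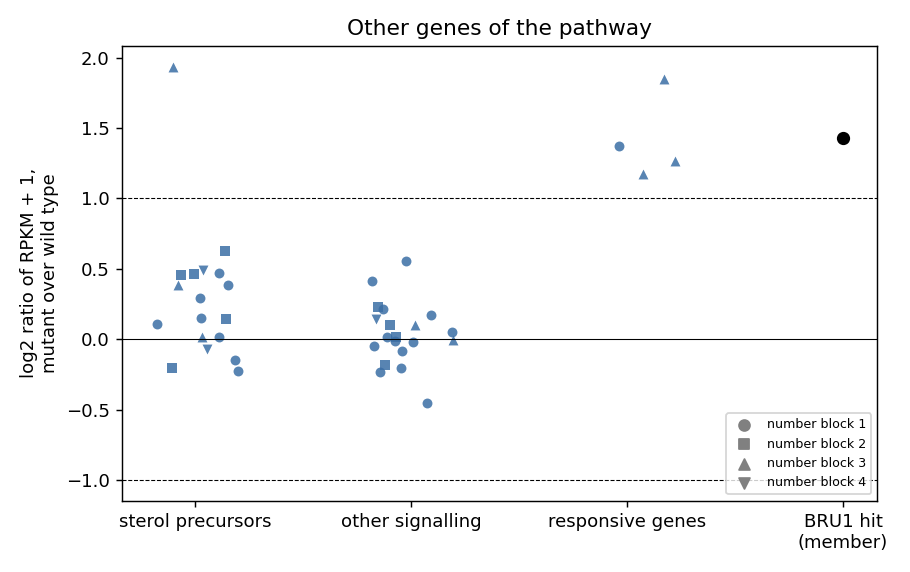
Log2 ratio of RPKM + 1, mutant over wild type, of the unigenes for sterol precursors (18), other signalling (20) and hormone-responsive genes (4), beside the BRU1 hit; marker shapes give the number block and dashed lines 2-fold. The 4 hits to hormone-responsive genes and the BRU1 hit lie above 1, other signalling lies around 0, and sterol precursors lie mostly above 0.

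Markers of cell types in the bud were read beside these values. The meristem gene STM had 136 mutant and 163 wild-type reads on Unigene27959, and 1 and 8 on Unigene33575 in block 4. Leaf mesophyll names gave 20 unigenes with 32559 mutant and 34655 wild-type reads, 1.07-fold lower (1.05 to 1.09), a summed level of 6969 mutant and 7653 wild-type RPKM, with 0 past 2-fold. At that limit 8.61% of all kept unigenes were higher and 5.31% lower. Of the 20, 14 had a negative ratio, while 53.8% of all kept unigenes had a positive one. The interval lay below 1 for 9 and above 1 for 2, where 13.8% and 19.0% of all unigenes did so. Phloem names gave 10 unigenes with 2127 mutant and 1514 wild-type reads, 1.40-fold (1.31 to 1.50), a summed level of 234 mutant and 173 wild-type RPKM, also with 0 past 2-fold. Their ratios were positive for 5 and negative for 5, with a median log2 ratio of -0.060, and the higher sum rests on Unigene8180 with 1408 and 981 reads and Unigene13455 with 483 and 260. No unigene matched the pollen or anther words. The part of these markers in the ratios of BRL1, SERK2 and the BRU1 hit was not tested.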

How the data were processed

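Poly(A) RNA of buds was sequenced from 1 mutant and 1 wild-type library. Per the file headers, the authors deposited the raw read count of each unigene, its RPKM in each library and its length in bases (unit other); recomputed RPKM matched 100% of the deposited values within 0.001. Assembler, aligner, counting tool and strandedness: not given in the sources used here. How reads of near-identical copies were shared is therefore uncertain, and several unigenes can be pieces of 1 transcript. The library totals were 10037 and 9995 in units of 1000 reads, mutant first. No per-sample column was left unmapped.

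Members were found by words in the deposited Swiss-Prot names and entry codes. Members and lists were chosen with earlier results of these data known. The ratio was log2 of RPKM + 1, with a minimum RPKM of 1 in at least 1 library, and folds used reads over library totals with exact 95% Clopper-Pearson intervals (Python 3.11.15, pandas 2.3.3, scipy 1.17.1). Against 0 reads a floor of 3 reads was used, which takes the other library's reads as exact. Without replicates no model was fitted and no p-value was computed. Reads are not independent molecules, so intervals and floors cover counting error only.

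Named were 61 members: those past 2-fold, those whose interval lay off 1, the highest of each role and the longest of each protein name. A few further unigenes, named for context, were chosen after their values were seen. Number blocks came from the 7 largest drops in windowed median length (window of 100), located after the dependence of the ratio on number was known. Each step was tested on simulated data. Alternatives changed the pseudocount, the minimum, the scaling, the threshold, the reads, length or E-value required, the unigenes per entry and the blocks.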

Additional observations from a re-analysis of the deposited data

How the results depend on the processing

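The number of members past 2-fold depended on the setting. From 12 higher and 8 lower, it moved to 20 higher with a pseudocount of 0.1, where the lower count was 11. It moved to 2 and 0 with a pseudocount of 5, to 4 and 3 at a minimum RPKM of 5, to 1 and 0 at 100 or more reads, to 2 and 4 at 500 or more bases, to 2 and 0 at E-values of at most 1e-50, to 3 and 0 with the longest unigene per entry, and to 3 and 1 at 4-fold. By a counting interval off 1 it was 27 and 14. In the first 2 number blocks, an alternative chosen after seeing the data, it was 1 and 0. No minimum, centring on the median ratio, trimmed-mean scaling and the protein name alone left both counts within 1.5 times of these. The median log2 ratio stayed positive under every alternative run for it, between 0.06 and 0.15. Under trimmed-mean scaling, the summed receptor fold was 1.03 with an interval that includes 1, the summed kinase fold turned to 0.971, and the summed BZR/BES fold was 0.936 with an interval below 1. The median log2 ratio of the BZR/BES factors turned to -0.022 on centring and to -0.042 on trimmed-mean scaling. These shifts follow from the scaling itself, which lowers every fold by the same factor; the cause of the others was not tested. Of the 58 named members with reads in both libraries, 6 lost and 2 gained an interval off 1 under that scaling; of the other 50, 5 had a fold that crossed 1, with an interval that includes 1 either way. No alternative could be run for the inactivating enzymes, which had no member. No paired analysis was possible because each group has 1 library, and for the same reason no replicate could be left out. With 69 of the 115 unigenes under 100 reads, differences of those members under about 2-fold were mostly not detectable at this depth.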
